A study of Mus musculus with 57 samples.

Results

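The 8 genes described here encode 4 facilitative hexose carriers of the Slc2a family (Slc2a1, Slc2a3, Slc2a4 and Slc2a8) and 4 carriers of the Slc16a family of monocarboxylate transporters (Slc16a1, Slc16a3, Slc16a6 and Slc16a7). They were chosen by name, with earlier results of these data known. Their rows are 8 of 59119 in a table of total RNA from mouse oocytes and preimplantation embryos, of which 54446 carry an Ensembl identifier. The same table holds 8 other Slc2a genes and 10 other Slc16a genes. The labels describe 57 samples in 18 groups, and the table has 43 sample columns, each called a library below.

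A stage series came from C57BL/6 wild-type material, with 2 libraries a stage. It began with the MII oocyte and the zygote and split the 2-cell embryo into an early (E2-cell) and a late (L2-cell) group. The later groups were the 4-cell embryo, the 8-cell embryo, the morula and, last, the blastocyst. BDF1 wild-type embryos were collected 14, 17 and 20 h after fertilization, with 2 libraries a time. In BDF1 embryos the long noncoding RNA LncR-3363 was knocked down by injecting an antisense oligonucleotide at 20 uM, which gave 4 libraries labelled KD-1cell, 1 labelled KD-2cell and 4 wild-type libraries labelled Ctrl. In BDF1 embryos with the age label 6-8W, MT2Mm, a family of repeats that ends the retroelement MERVL, was knocked out by Cas9. The mRNA of Cas9 was injected at 100 ng/uL with sgRNA at 150 ng/uL. Knockout (ko) and control (ctrl) embryos were collected late in the 1-cell stage (Late1c) and early in the 2-cell stage (Early2c), with 3 libraries in each of the 4 groups. Injections of 5 to 10 pL were made into MII oocytes. The labels do not say whether control embryos were injected. Each sample pools embryos, 150 to 200 of them with the standard kit, and nothing states that replicates came from separate collections, so the p-values measure the spread between these libraries, which may be technical. Whether the antisense oligonucleotide or the guides acted on their targets was not checked here.

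Slc2a proteins let hexoses cross membranes down their gradient, and some Slc16a members move monocarboxylates such as lactate and pyruvate together with protons. The mouse embryo relies on pyruvate and lactate through its first cleavages and takes up more glucose as it forms the blastocyst, a switch for which these carriers are textbook components. Slc2a1 encodes GLUT1, a widely expressed glucose carrier of the plasma membrane, and Slc2a3 encodes GLUT3, a glucose carrier of high affinity that has been placed in the trophectoderm. Slc2a4 encodes GLUT4, which insulin brings to the surface of muscle and fat cells, and Slc2a8 encodes GLUT8, a carrier largely held inside the cell. Slc16a1, Slc16a7 and Slc16a3 encode MCT1, MCT2 and MCT4, carriers of lactate and pyruvate, and Slc16a6 encodes MCT7, which has been linked to the export of ketone bodies.

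In the annotation of genome build GRCm38 all 8 are protein-coding. Slc2a1 (ENSMUSG00000028645.11) lies on the plus strand at chr4:119108711-119137983 and Slc2a3 (ENSMUSG00000003153.10) on the minus strand at chr6:122727809-122801640. Slc2a4 (ENSMUSG00000018566.14) lies on the minus strand at chr11:69942539-69948188 and Slc2a8 (ENSMUSG00000026791.14) on the minus strand at chr2:32972990-32982083. Slc16a1 (ENSMUSG00000032902.1) lies on the plus strand at chr3:104638668-104658462 and Slc16a3 (ENSMUSG00000025161.16) on the plus strand at chr11:120948480-120960868. Slc16a6 (ENSMUSG00000041920.14) lies on the minus strand at chr11:109450855-109473598 and Slc16a7 (ENSMUSG00000020102.15) on the minus strand at chr10:125219270-125389465. Slc16a6 shares 1052 exonic bases with Amz2, which runs on the opposite strand, and Slc2a1 shares 105 with the antisense gene Gm12868. The kits mark strand, but no label says whether counting used it, so reads of such pairs may not be told apart. Amz2 stood at 1.05 ± 0.046 FPKM (fragments per kilobase of transcript at a fixed number of mapped fragments, mean ± SD, n = 2) in the L2-cell stage, where Slc16a6 stood at 39.2 ± 5.54, and at 8.05 ± 0.96 in the MII oocyte, where Slc16a6 stood below 0.14. Gm12868 fell together with Slc2a1, from 3.53 ± 0.94 in the zygote to 1.28 ± 0.29 in the E2-cell stage and 0.088 ± 0.12 in the L2-cell stage, and was listed at 0 in the 4-cell stage. Its part in the Slc2a1 values was not tested.

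RefSeq promoter entries of build GRCm38.p6 were found for 4 of the 8 genes. The 250 bases before the start are shown for 3 of them: Slc2a1 and Slc2a8, whose transcripts moved in opposite directions between the E2-cell and 4-cell stages, and Slc16a1, which differed in the knockdown and knockout embryos. They lie at chr4:119108495-119108744 (plus strand), chr2:32982084-32982333 (minus strand) and chr3:104638414-104638663 (plus strand), each written on its gene's strand, 5′ to 3′. Capitals mark matches on either strand to 6 motifs.
Slc2a1: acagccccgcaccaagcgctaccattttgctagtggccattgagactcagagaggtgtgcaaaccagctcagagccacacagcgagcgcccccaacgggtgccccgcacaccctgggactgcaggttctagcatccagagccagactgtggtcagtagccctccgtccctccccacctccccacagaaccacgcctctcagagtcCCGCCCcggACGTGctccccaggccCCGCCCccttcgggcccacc
Slc2a8: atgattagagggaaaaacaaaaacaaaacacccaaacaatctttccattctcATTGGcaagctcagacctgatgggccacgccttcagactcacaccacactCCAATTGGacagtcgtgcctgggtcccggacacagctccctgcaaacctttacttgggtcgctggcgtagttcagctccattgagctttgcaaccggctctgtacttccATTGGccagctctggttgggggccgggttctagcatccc
Slc16a1: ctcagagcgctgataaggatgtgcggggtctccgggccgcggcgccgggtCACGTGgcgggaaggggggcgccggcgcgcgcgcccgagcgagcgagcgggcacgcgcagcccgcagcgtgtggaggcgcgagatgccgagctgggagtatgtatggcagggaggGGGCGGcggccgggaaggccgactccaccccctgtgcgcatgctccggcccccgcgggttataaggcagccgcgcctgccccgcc
The Slc2a1 stretch holds 2 matches to the GC box GGGCGG, which 32.7% of the 32851 promoters in the table hold, and 1 match to ACGTG, the core of the hypoxia response element, found in 16.6%. The Slc2a8 stretch holds 4 matches to CCAAT, found in 33.8%, of which 1 pair overlaps on opposite strands, and no match to the other 5 motifs. The Slc16a1 stretch holds 1 E-box CACGTG, found in 6.02%, with 2 ACGTG matches inside it on opposite strands, and 1 GC box. TATAAA (12.4% of all promoters) and the TEAD-type site GGAATG (12.6%) had no match in these stretches. A match describes the letters and is not a measured binding site.

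Read counts are not in the table, so the depth behind each value is unknown, and a value listed at 0 can be a failed estimate. Per library 10704 to 12892 rows reached 1 FPKM. Summed oocyte markers (8 genes) fell from 4003 to 4521 FPKM in the MII oocyte to 7.71 to 8.46 in the blastocyst, and summed blastocyst markers (8 genes) stood at 1865 to 1987 in the blastocyst. Summed cumulus and granulosa markers (11 genes) reached at most 9.18 FPKM and sperm markers (6 genes) at most 8.14. The libraries labelled KD-1cell summed 72.3 to 101 FPKM of 6 markers of the 2-cell stage, against 2.32 to 6.01 in the zygote and 88.2 to 113 in Ctrl, so these libraries did not look like 1-cell embryos and are named by their label. The 2 zygote libraries stood apart for some genes. Their column names carry different tags, which replicate 1 shares with both E2-cell libraries and replicate 2 with MII replicate 1, and mitochondrial genes took 2.75% of the FPKM sum in replicate 1 and 0.46% in replicate 2. The MII columns also differ in tag, and their mitochondrial shares lay further apart, at 0.317% in MII replicate 1 and 5.56% in MII replicate 2. The part of tags and depth in the results was not tested.

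Slc2a1 was the main Slc2a member of the oocyte, fell to its lowest level at the 4-cell stage and rose again to the blastocyst. In bulk samples fewer cells of a type and less RNA per cell cannot be told apart. Its level was 14.7 and 14.1 FPKM in the MII libraries, 21.8 and 15.8 in the zygote and 11.8 and 13.2 in the E2-cell stage. It was 2.38 and 2.50 in the L2-cell stage, 0.601 and 0.58 in the 4-cell stage and 1.179 and 1.03 in the 8-cell stage. It then stood at 4.40 and 3.92 in the morula and 16.9 and 15.2 in the blastocyst. The libraries of the 5 steps from E2-cell on did not overlap with those of the step before. Changes are given as log2 differences on log2(FPKM + 0.5), which understates the change of low genes, with the standard error (SE) and limma's p adjusted over all rows tested. Slc2a1 fell by 2.14 from E2-cell to L2-cell (SE 0.15, adjusted p = 2.3e-07) and by 1.43 to the 4-cell stage (SE 0.15, adjusted p = 1.3e-05). It rose by 0.56 to the 8-cell stage (adjusted p = 0.014), by 1.54 to the morula (adjusted p = 5e-05) and by 1.83 to the blastocyst (SE 0.15, adjusted p = 2.1e-06). The smaller fall from zygote to E2-cell was 0.55 (adjusted p = 0.01), and missed the threshold without zygote replicate 1 (-0.33, adjusted p = 0.054) and without E2-cell replicate 1 (-0.48, adjusted p = 0.07). The rise to the 8-cell stage likewise missed it without either 4-cell library (adjusted p = 0.056 and 0.069) or without 8-cell replicate 1 (adjusted p = 0.084). Blastocyst and MII oocyte differed by 0.15 (SE 0.15, adjusted p = 0.38), and by -0.13 when the columns were scaled by the median of ratios. In order of level, zygote, blastocyst, MII and E2-cell were neighbours that did not pass the test against the next, followed by morula, L2-cell, 8-cell and 4-cell, each of which was lower than the one before.

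**Figure D1:**
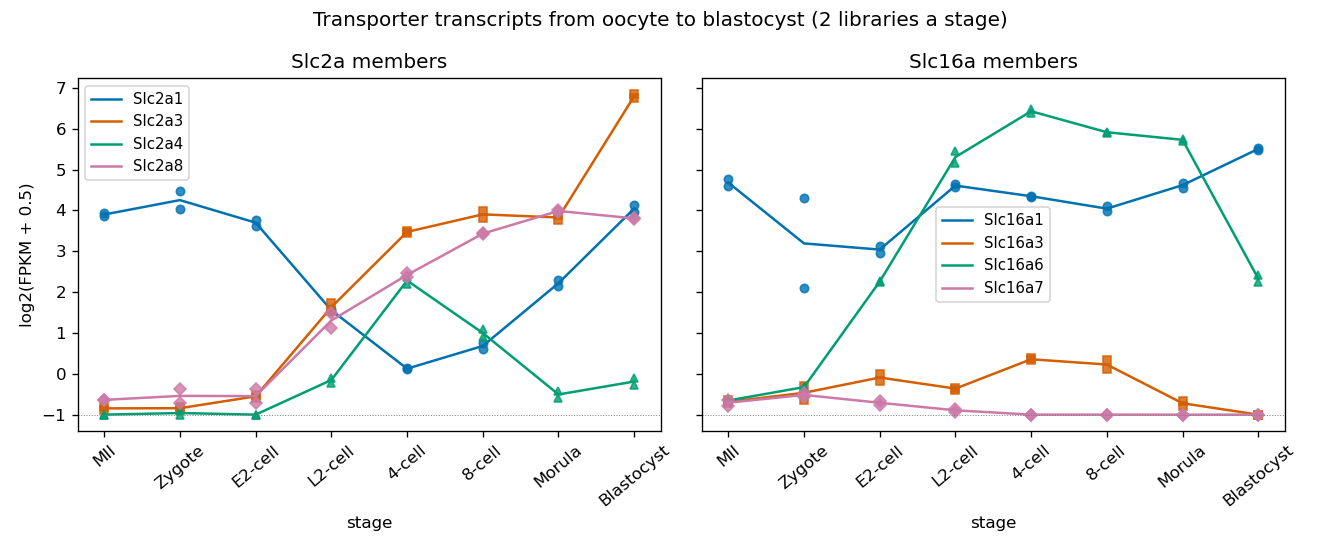
Level of each gene on the log2(FPKM + 0.5) scale (vertical axis) at 8 stages (horizontal axis), for Slc2a members on the left and Slc16a members on the right. Points are the 2 libraries of a stage and lines join their means; the dotted line is a listed level of 0. Slc2a1 has its lowest point at the 4-cell stage, where Slc2a4 and Slc16a6 have their highest.

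Slc2a3 and Slc2a8 were near 0 in the oocyte and accumulated after the E2-cell stage. Slc2a3 was listed at 0.0718 and 0.041 FPKM in the MII oocyte, 0.0659 and 0.0496 in the zygote and 0.196 and 0.168 in the E2-cell stage. It reached 2.80 and 2.41 in the L2-cell stage, 10.3 and 10.9 in the 4-cell stage, 15.4 and 13.6 in the 8-cell stage and 14.4 and 13.0 in the morula. In the blastocyst it stood at 107 and 114, far above every other library. The increments were 2.18 (SE 0.11, adjusted p = 2.9e-08) to the L2-cell stage, 1.84 (SE 0.11, adjusted p = 4.5e-07) to the 4-cell stage and 2.97 (SE 0.11, adjusted p = 9.4e-09) from morula to blastocyst. Slc2a3 reached 1 FPKM only from the L2-cell stage on. Its p-values against earlier stages thus describe the course without supporting it. Between 8-cell stage and morula the difference was -0.08 (adjusted p = 0.77) and the libraries overlapped. The rise of 0.43 from 4-cell to 8-cell (adjusted p = 0.014) missed the threshold without 4-cell column 1 (adjusted p = 0.083) or without 8-cell replicate 1 (adjusted p = 0.1).

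Slc2a8 rose in smaller steps. It was 0.106 to 0.276 FPKM over the zygote and E2-cell libraries and 0.141 and 0.144 in the MII oocyte. Its level was 2.30 and 1.68 in the L2-cell stage, 4.71 and 5.00 in the 4-cell stage, 10.2 and 10.3 in the 8-cell stage, 15.2 and 15.5 in the morula and 13.4 and 13.5 in the blastocyst. It rose by 1.85 (SE 0.16, adjusted p = 1.6e-06), 1.11 (adjusted p = 0.00016) and 1.01 (adjusted p = 0.00085) at the steps to the L2-cell, 4-cell and 8-cell stages. Slc2a8, too, reached 1 FPKM only from the L2-cell stage on, so the same limit holds for its p-values against earlier stages. The step to the morula, 0.56 (adjusted p = 0.033), missed the threshold without any single one of the 4 libraries (adjusted p from 0.11 to 0.14) and with a pseudocount of 0.1 (adjusted p = 0.23). Morula and blastocyst differed by -0.18 (SE 0.16, adjusted p = 0.47).

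Slc2a4, the insulin-responsive carrier, was seen mainly at the 4-cell stage. It was listed at 0 in both MII and both E2-cell libraries and at 0 and 0.028 FPKM in the zygote. It was 0.362 and 0.439 in the L2-cell stage, 4.65 and 4.10 in the 4-cell stage and 1.63 and 1.38 in the 8-cell stage. It was 0.25 and 0.161 in the morula and 0.33 and 0.426 in the blastocyst, which overlaps the L2-cell range. It rose by 2.44 (SE 0.12, adjusted p = 1.2e-07) to the 4-cell stage and fell by 1.28 (adjusted p = 3.8e-05) to the 8-cell stage. It fell by 1.504 (adjusted p = 1.9e-05) to the morula. Slc2a4 reached 1 FPKM only in the 4-cell and 8-cell libraries and was tested through those stages alone. Its p-values thus describe the course without supporting it. Its calls from E2-cell to L2-cell and between blastocyst and MII oocyte, counted below, compare levels that all lie under 1 FPKM. Insr, the insulin receptor, was at or under 0.906 FPKM in every stage mean, and Tbc1d4, an insulin-pathway substrate that acts in GLUT4 trafficking, at or under 0.151.

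With these courses the make-up of the 4 Slc2a genes turned over. FPKM is scaled per length, so levels of different genes can be set side by side. Slc2a1 made up 98.6% of the summed FPKM of the 4 genes in the MII oocyte (98.6% and 98.7% in the libraries), 97.1% in the E2-cell stage, 33.0% in the L2-cell stage and 2.89% in the 4-cell stage. Slc2a3 made up 51.9% in the 4-cell stage, with 23.8% for Slc2a8 and 21.4% for Slc2a4. In the morula Slc2a8 (46.0%) and Slc2a3 (41.0%) were the main members. In the blastocyst Slc2a3 made up 78.7%, Slc2a1 11.4% and Slc2a8 9.58%, so the return of Slc2a1 to its oocyte level came beside a larger amount of Slc2a3. Over all 12 Slc2a rows of the table Slc2a1 made up less, 48.3% in the MII oocyte and 56.5% in the E2-cell stage, since Slc2a12 stood at 9.94 ± 1.62 FPKM, Slc2a10 at 2.50 ± 0.14 and Slc2a9 at 2.05 ± 0.57 in the MII oocyte. In the blastocyst the share of Slc2a3 over all 12 rows was 77.6%.

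**Figure D2:**
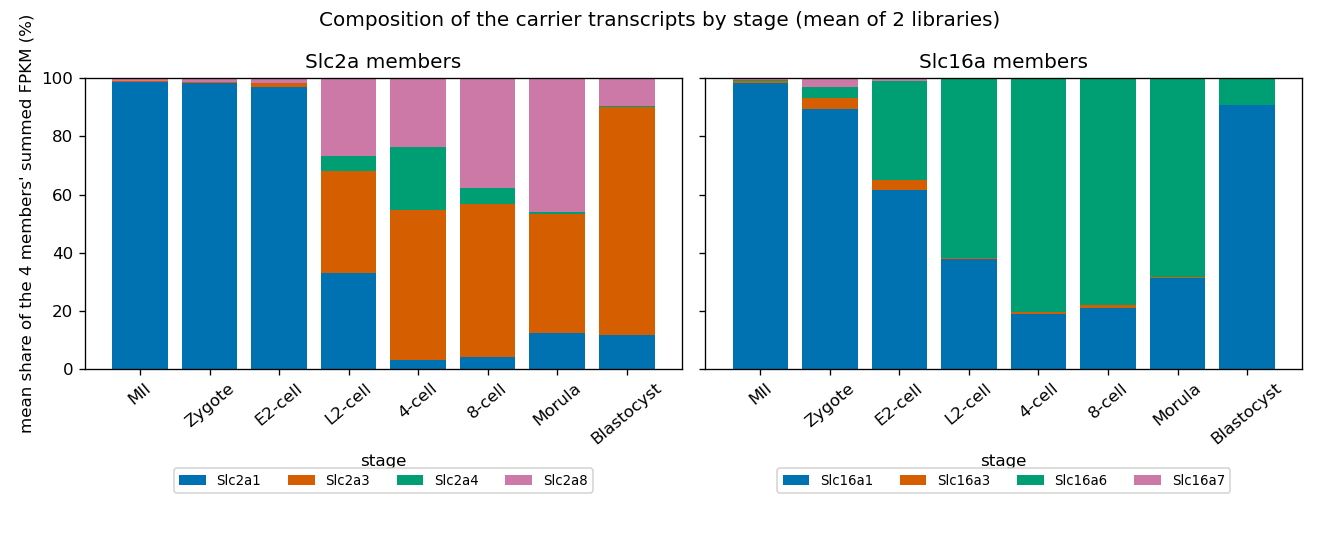
Mean share (%, vertical axis, starting at 0) of each gene in the summed FPKM of the 4 Slc2a members (left) and of the 4 Slc16a members (right) at each stage (horizontal axis), over 2 libraries. The Slc2a bars change from Slc2a1 (98.6% in MII) to Slc2a3 (78.7% in the blastocyst), and the Slc16a bars from Slc16a1 (98.5% in MII) to Slc16a6 (80.6% in the 4-cell stage) and back to Slc16a1 (90.8% in the blastocyst).

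Slc16a6 had the opposite course to Slc2a1, high in the middle stages and low at both ends. It was 0.132 and 0.138 FPKM in the MII oocyte, 0.303 and 0.292 in the zygote and 4.35 and 4.21 in the E2-cell stage. It reached 43.1 and 35.3 in the L2-cell stage and 82.5 and 88.6 in the 4-cell stage, its highest. It was 60.4 and 59.1 in the 8-cell stage, 53.4 and 51.6 in the morula and 4.83 and 4.25 in the blastocyst, which overlapped with the E2-cell range. Slc16a6 rose by 2.58 from zygote to E2-cell (SE 0.12, adjusted p = 2.7e-08), by 3.05 to the L2-cell stage (SE 0.12, adjusted p = 2.9e-09) and by 1.12 to the 4-cell stage (adjusted p = 1.3e-05). It fell by 0.51 to the 8-cell stage (adjusted p = 0.006, and 0.051 without 4-cell column 2) and by 3.40 from morula to blastocyst (SE 0.12, adjusted p = 5.2e-09). The step from 8-cell to morula, -0.19 (adjusted p = 0.33), did not pass the test. Slc16a6 reached 1 FPKM only from the E2-cell stage on. Its p-values against MII oocyte and zygote thus describe the course without supporting it.

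Slc16a1, the main lactate and pyruvate carrier of many tissues, was present at every stage, with a dip before the L2-cell stage. It was 26.8 and 23.5 FPKM in the MII oocyte, 3.75 and 19.1 in the zygote and 7.20 and 8.29 in the E2-cell stage. It was 23.3 and 24.4 in the L2-cell stage, 19.7 and 20.0 in the 4-cell stage, 16.7 and 15.3 in the 8-cell stage, 23.0 and 25.1 in the morula and 45.9 and 43.9 in the blastocyst. The zygote pair was the widest apart of any pair of Slc16a1, with replicate 2 below both MII libraries and replicate 1 below both E2-cell libraries. Ldhb, which encodes the lactate dehydrogenase subunit of the oocyte, split the same pair, at 575 ± 456 FPKM in the zygote against 1046 ± 135 in the MII oocyte. Because of that pair the fitted error of Slc16a1 was wide (SE 0.49), and the rise of 1.57 to the L2-cell stage (adjusted p = 0.014) was the step that passed the test, though it missed it without E2-cell replicate 1 (adjusted p = 0.064) and without L2-cell replicate 2 (adjusted p = 0.057). When both zygote libraries were left out of the fit, a choice made after the data were seen, the same changes had an SE of 0.10. Then Slc16a1 rose by 1.57 to the L2-cell stage (adjusted p = 2.1e-07), fell by 0.26 to the 4-cell stage (adjusted p = 0.037) and by 0.30 to the 8-cell stage (adjusted p = 0.028). In that fit it rose by 0.57 to the morula (adjusted p = 0.0017) and by 0.89 to the blastocyst (adjusted p = 3.4e-05). From MII to zygote the difference was -1.49 (adjusted p = 0.12) in the full fit, -2.59 (adjusted p = 6.7e-07) without zygote replicate 2 and -0.48 (adjusted p = 0.058) on the libraries that share a tag, 1 of each stage. In these fits with 1 zygote library the spread comes from the other stages, the lone library is assumed to vary like them, and the gap between the zygote libraries is not in the error. The step from zygote to E2-cell was -0.15 (adjusted p = 0.86) in the full fit, and rose by 0.95 (adjusted p = 9.7e-05) when zygote replicate 2 was left out, which leaves libraries of 1 tag at that step. Without zygote replicate 1 it fell by 1.25 (adjusted p = 2e-05). The direction of Slc16a1 after the zygote thus rests on which zygote library is used.

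Slc16a3 and Slc16a7 were low. Slc16a3, the carrier associated with lactate export from glycolytic cells, had its highest values in the 4-cell stage (0.756 and 0.804 FPKM), with 0.762 and 0.585 in the 8-cell stage, 0.0798 and 0.135 in the morula and 0 in both blastocyst libraries. Slc16a7 was at most 0.221 FPKM, in zygote replicate 1, and was listed at 0 in all 8 libraries from 4-cell to blastocyst. Neither reached 1 FPKM in any library, so the filter kept both out of the tests. In the stage fit without a filter Slc16a3 rose by 0.72 from L2-cell to 4-cell (adjusted p = 0.0023) and fell by 0.95 from 8-cell to morula (adjusted p = 0.0016). In that fit Slc16a7 fell by 0.19 from zygote to E2-cell (adjusted p = 0.03) and by 0.18 to the L2-cell stage (adjusted p = 0.023), all at levels near or under the pseudocount. Slc16a1 made up 98.5% of the summed FPKM of the 4 Slc16a genes in the MII oocyte, 37.8% in the L2-cell stage, 18.7% in the 4-cell stage and 90.8% in the blastocyst. Slc16a6 took most of the rest, with 34.1% in the E2-cell stage, 61.7% in the L2-cell stage, 80.6% in the 4-cell stage and 68.5% in the morula. Over all 14 Slc16a rows Slc16a1 made up 48.7% in the MII oocyte, where Slc16a10, a carrier of aromatic amino acids, stood at 17.9 ± 4.7 FPKM, and 77.6% in the blastocyst. Slc16a6 made up 74.0% of all 14 rows in the 4-cell stage.

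**Figure D3:**
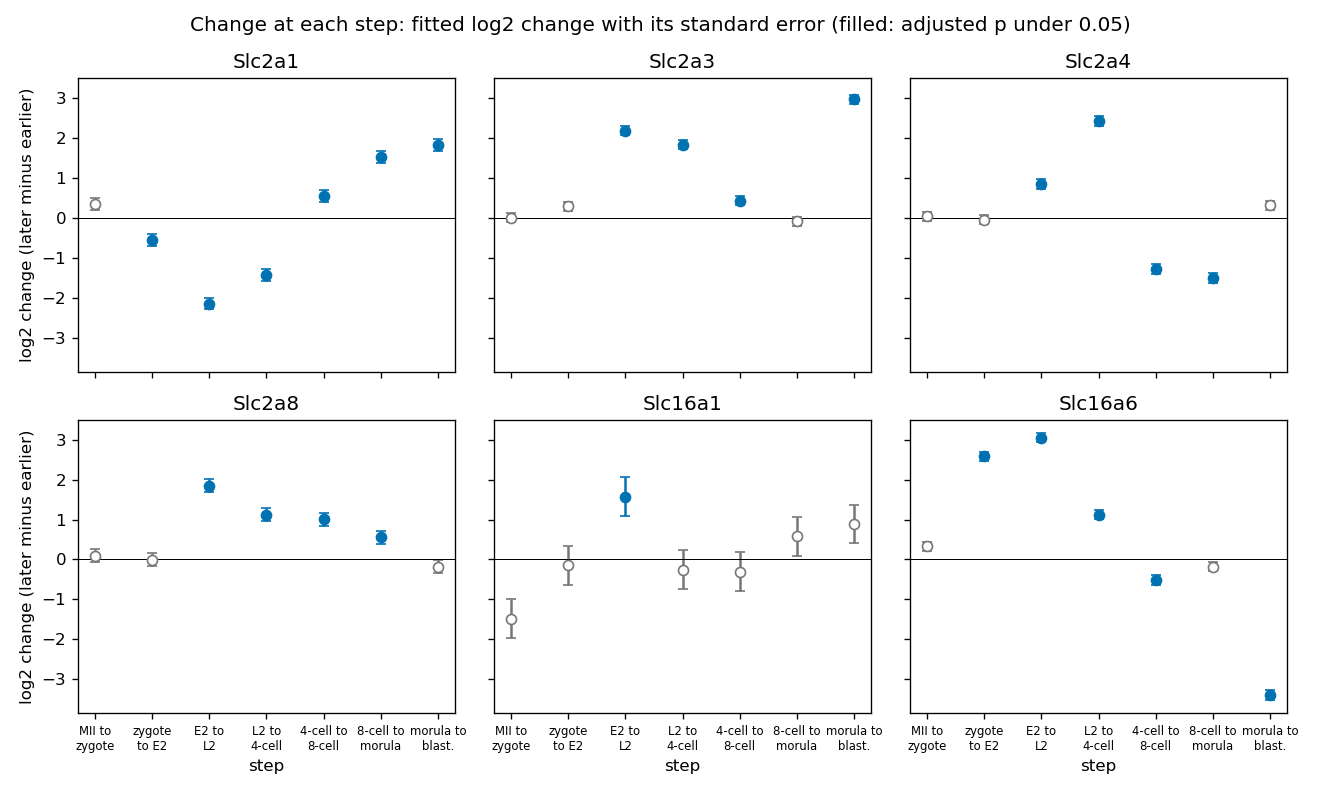
Change of each tested gene at the 7 steps of the stage series (horizontal axis), as the fitted log2 difference of later minus earlier stage (vertical axis). Bars are the standard error, and filled points have an adjusted p under 0.05. The bars of Slc16a1 are the widest (SE 0.49), and Slc2a3 rises most (2.97) and Slc16a6 falls most (-3.40) from morula to blastocyst.

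Counted by step, the 6 members that could be tested in the stage series were all called at the step from E2-cell to L2-cell. A member could be tested with at least 1 FPKM in 2 libraries, so a gene that passed through the stage where it is high had to differ somewhere. The counts, and the p-values of such genes against stages where they are low, describe the course without supporting it. From MII to zygote none was called, against 3.76% of all rows (1.73% higher and 2.03% lower), and 3 had an unadjusted p under 0.05. From zygote to E2-cell Slc16a6 rose and Slc2a1 fell, where 44.1% of rows were called (17.9% higher and 26.2% lower). From E2-cell to L2-cell all 6 were called, 5 higher and Slc2a1 lower, against 68.7% of rows (31.1% higher and 37.6% lower). Stage and column tag cannot be told apart at this step or the next. At the step to the 4-cell stage 4 rose and Slc2a1 fell (56.3% of rows called, 30.2% higher and 26.2% lower), and at the step to the 8-cell stage 3 rose and 2 fell (13.4% of rows called higher and 21.6% lower, 35.0% in all). From 8-cell to morula 2 rose and Slc2a4 fell (20.9%, with 8.39% higher and 12.5% lower), and from morula to blastocyst 2 rose and Slc16a6 fell (38.7%, with 22.4% higher and 16.3% lower). Between the blastocyst and the MII oocyte 4 members were higher and none lower, where 80.3% of rows were called (40.1% higher and 40.2% lower). In that comparison Slc2a3 was higher by 7.64 (SE 0.11, adjusted p = 2.7e-12), Slc2a8 by 4.44 and Slc16a6 by 2.98, while Slc16a1 differed by 0.82 (adjusted p = 0.14, or 1.5e-05 without the zygote libraries).

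The genes whose 8 stage means ran most like each member's are given as a description, since stages share their libraries across all genes. For Slc2a1 they were Tbl1xr1 (Pearson r = 0.9906), Fabp5 and Rap2b, out of 10903 candidates with a stage mean of at least 5 FPKM. Slc2a3 ran with Cap1 (r = 0.9953), Alg5 and Cnn2, all with their highest level in the blastocyst. Slc2a8 ran with Cln8 (r = 0.9994), Cox7a1 and Eif2s3y. Slc2a4 ran with Lzts3 (r = 0.9807), Racgap1 and Gm43064, and Slc16a6 with Bex6 (r = 0.9932), Gm2027 and Ints13, and these 6 had their highest level in the 4-cell stage. Slc16a1 had the loosest matches, Tmem39a (r = 0.9516), Cox14 and Hsph1.

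Enzymes of glycolysis, which break down the glucose these carriers bring in, mostly rose at the blastocyst. The shares of all rows called at each stage step, given above, are the background of the counts that follow. Of 21 glycolysis genes 17 could be tested, and from morula to blastocyst 11 rose and 3 fell, where 22.4% of all rows rose and 16.3% fell, with a median of 1.56 against 0.00 over all rows. Gapdh rose from 1.71 ± 0.060 to 27.4 ± 1.8 FPKM (log2 3.65, adjusted p = 2.4e-08), Tpi1 by 3.39 and Pkm, the pyruvate kinase of dividing cells, by 2.78. Hk2, a hexokinase that traps glucose in the cell, rose from 17.5 ± 0.40 to 87.2 ± 2.6 FPKM (2.29, adjusted p = 3.6e-06), while Hk1 fell from 21.1 ± 1.1 to 2.25 ± 0.32 (-2.97, adjusted p = 8.3e-08). Those increases stood beside the rises of Slc2a1 (1.83) and Slc2a3 (2.97) at the same step. At the step from E2-cell to L2-cell, where Slc2a1 fell and Slc2a3 rose, 4 glycolysis genes rose and 8 fell (median -0.22 against -0.10), which is near the 68.7% of all rows called.

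Other hexose carriers fell with Slc2a1 in 3 of 4 cases. Of 11 other hexose carriers 4 could be tested, and from E2-cell to L2-cell 3 fell and 1 rose, where 37.6% of all rows fell and 31.1% rose, with a median of -0.96 against -0.10. Slc2a12 fell by 1.21 (adjusted p = 4e-05) and Slc2a9, a urate carrier, by 1.16. Slc5a11, a sodium-coupled carrier of inositol and glucose, rose by 2.34 (adjusted p = 1.1e-08) and went on from 2.14 ± 0.10 FPKM in the L2-cell stage to 68.9 ± 2.5 in the blastocyst. Among 12 other genes of monocarboxylate transport 7 could be tested, of which 1 rose and 4 fell at the L2-cell step (median -0.50 against -0.10), near the 68.7% of all rows called. Slc16a13 fell there by 1.47 and rose by 1.15 from morula to blastocyst (adjusted p = 0.0007). Bsg, the chaperone that takes MCT1 to the membrane, rose from 18.3 ± 0.17 FPKM in the L2-cell stage to 38.0 ± 1.2 in the 4-cell stage and 149 ± 0.23 in the blastocyst. Txnip, which draws GLUT1 from the surface, fell from 424 ± 51 FPKM in the MII oocyte to 32.8 ± 6.5 in the E2-cell stage and 1.71 ± 0.0038 in the morula.

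Among transcripts of lactate and pyruvate handling, Ldhb stood at 1046 ± 135 FPKM in the MII oocyte and 1.11 ± 0.052 in the blastocyst. Mpc2, a subunit of the mitochondrial pyruvate carrier, rose by 2.33 from E2-cell to L2-cell (adjusted p = 5.8e-09) and fell by 1.21 from morula to blastocyst. Of 17 genes of lactate and pyruvate handling 15 could be tested, with 6 higher and 7 lower at the L2-cell step (median -0.45 against -0.10, with 68.7% of all rows called) and 2 higher and 3 lower from morula to blastocyst (median -0.07 against 0.00, with 38.7% called). Hif1a, the oxygen-regulated subunit of the hypoxia factor, fell by 2.34 to the L2-cell stage and rose by 2.43 from morula to blastocyst (adjusted p = 2.7e-08). Slc2a1 fell and rose at these steps too, and also changed at 4 others. Of 12 receptor and hypoxia genes 9 could be tested, with 4 higher and 2 lower at the L2-cell step (68.7% of all rows called, median 0.17 against -0.10) and 2 higher and 3 lower from morula to blastocyst (38.7%, median -0.21 against 0.00).

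Within the first cell cycle of BDF1 embryos 2 members could be tested, Slc2a1 and Slc16a1. Slc2a1 was 12.8 and 14.03 FPKM at 14 h, 10.2 and 10.4 at 17 h and 11.3 and 10.3 at 20 h. It fell by 0.37 from 14 to 17 h (SE 0.07, adjusted p = 0.0091, and 0.051 without 14 h replicate 2), at a step that called 37.0% of rows (20.5% higher, 16.5% lower). It differed by 0.07 (adjusted p = 0.52) from 17 to 20 h, where 19.6% were called (5.13% higher and 14.5% lower). Slc16a1 was 11.9 and 10.98 at 14 h, 10.5 and 9.95 at 17 h and 8.66 and 10.0 at 20 h. The differences of Slc16a1 were -0.16 (adjusted p = 0.16) and -0.13 (adjusted p = 0.32). From 17 to 20 h limma called none of the 2, with none at an unadjusted p under 0.05. The 17 h columns carry another handling word in their names than the other times, so time and handling cannot be told apart. Slc16a6, below the filter, was 0.207 and 0.229 at 14 h, 0.276 and 0.23 at 17 h and 0.425 and 0.454 at 20 h. Slc2a3 was at most 0.157 and Slc2a4 at most 0.0404 in these libraries.

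The MT2Mm experiment compares knockout with control embryos before and after the first cleavage. At Late1c neither Slc2a1 nor Slc16a1 passed the test between knockout and control, and Slc16a6 was too low there to show a difference. At Early2c Slc16a1 was higher and Slc16a6 lower in the knockout. Slc16a1 was 5.36, 5.47 and 5.40 FPKM in Late1c controls and 6.01, 4.91 and 5.44 in Late1c knockouts. It was 2.25, 2.69 and 2.34 in Early2c controls and 4.84, 4.59 and 5.16 in Early2c knockouts. Every Early2c knockout library thus stood above every Early2c control. Slc16a6 was 5.38, 5.54 and 5.01 in Early2c controls and 3.28, 3.23 and 3.44 in Early2c knockouts, again without overlap. In Late1c it lay between 0.0794 and 0.177 in all 6 libraries, far under the filter, which it passed through Early2c alone.

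The knockout effect at Early2c was 0.88 for Slc16a1 (SE 0.08, adjusted p = 5.5e-06) and -0.60 for Slc16a6 (SE 0.08, adjusted p = 0.00012), where 49.0% of rows were called (33.4% higher and 15.6% lower). For Slc2a1 it was 0.21 (adjusted p = 0.09). Slc2a1 was 5.84, 6.18 and 6.54 in Early2c controls and 7.30, 6.25 and 8.25 in knockouts, which overlap, and its call was reached without knockout replicate 2 (0.31, adjusted p = 0.018). At Late1c limma called none of the 3 members and none had an unadjusted p under 0.05, where 0.114% of rows were called (0.0455% higher and 0.0683% lower). There Slc16a1 differed by 0.01 (SE 0.08) and Slc2a1 by -0.05 (SE 0.10). The value of Slc16a6, 0.04, is held near 0 by the pseudocount and says nothing about a difference. The difference between the effects, tested as an interaction, was 0.87 for Slc16a1 (SE 0.12, adjusted p = 0.00017), with 37.3% of rows called (25.7% higher and 11.6% lower). That of Slc16a6, -0.64 (SE 0.12, adjusted p = 0.0016), restates its Early2c effect, since its Late1c level could show none. For Slc2a1 the interaction was 0.26 (adjusted p = 0.15), and 0.36 (adjusted p = 0.039) without Early2c knockout replicate 2.

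Read as a step between stages, control embryos lost Slc16a1 and gained Slc16a6. From Late1c to Early2c Slc16a1 fell by 1.02 (adjusted p = 2.4e-07) and Slc2a1 by 0.49 (adjusted p = 0.00055), and Slc16a6 rose by 3.23 (adjusted p = 1.2e-11), where 79.2% of rows were called (33.5% higher and 45.7% lower). In the knockout Slc16a6 rose by 2.58 (adjusted p = 1.4e-10), Slc16a1 changed by -0.15 (adjusted p = 0.13) and Slc2a1 by -0.22 (adjusted p = 0.054), with 70.4% of rows called (33.9% higher and 36.6% lower). Slc2a1 was called at this step without Early2c knockout replicate 3 (-0.31, adjusted p = 0.012). Slc16a1 was called as lower there without Late1c knockout replicate 2 (-0.21, adjusted p = 0.044). Slc16a6 passed the filter through its Early2c libraries alone. Its p-values from Late1c to Early2c thus describe the course without supporting it, in controls and in knockouts. At Early2c Slc16a6 made up 65.8% of the sum of the 4 Slc16a genes in controls (63.9% to 67.3%) and 38.6% in knockouts (37.5% to 39.2%), while Slc16a1 went from 30.0% to 56.5%. Over all 14 Slc16a rows Slc16a6 made up 34.0% and 17.6%. Summed 2-cell markers were 182 to 192 FPKM in Early2c controls and 146 to 155 in knockouts, and summed oocyte markers 683 to 757 and 828.9 to 943, so both marker sums differed without overlap. Of the 6 markers of the 2-cell stage 1 was called higher and 2 lower, and of the 8 of the oocyte 4 higher and none lower. Their part in the result was not tested.

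**Figure D4:**
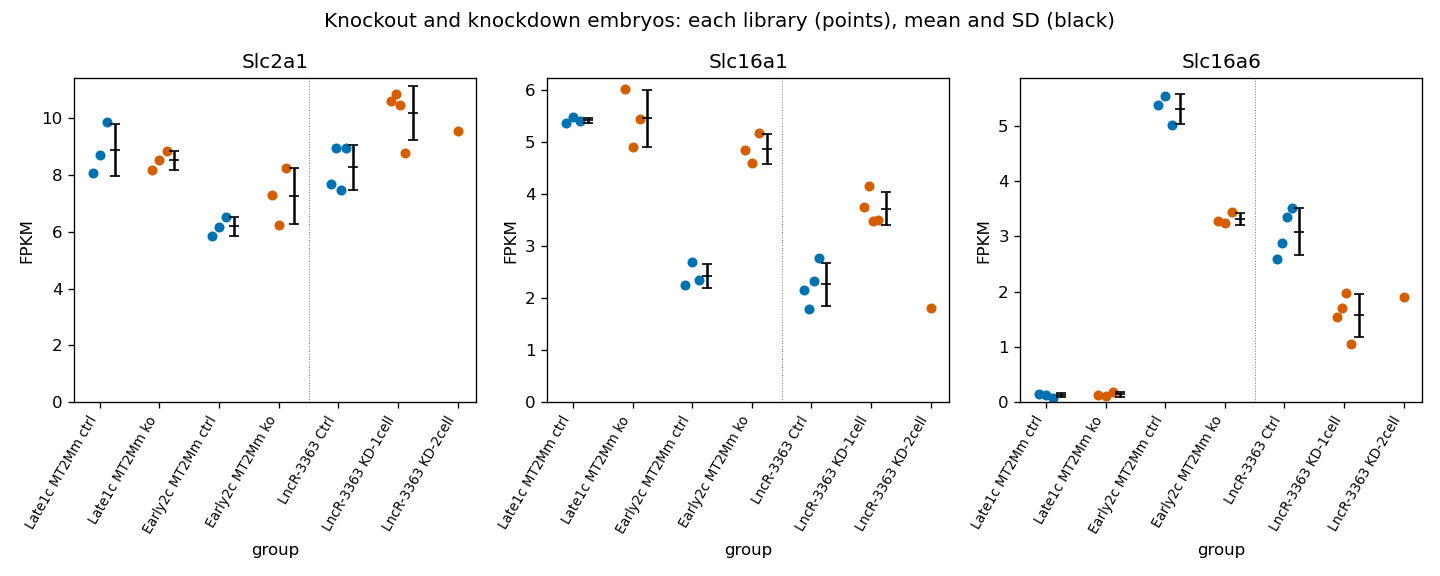
FPKM (vertical axis, starting at 0) of Slc2a1, Slc16a1 and Slc16a6 in every library of the MT2Mm and LncR-3363 experiments (horizontal axis), with the mean and SD of groups of 3 or 4 in black; orange marks knockout or knockdown and blue the controls. The Slc16a1 points of Early2c knockouts (4.59 to 5.16) lie above those of their controls (2.25 to 2.69), and the Slc16a6 points lie below (3.23 to 3.44 against 5.01 to 5.54).

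In the LncR-3363 experiment Slc16a1 and Slc2a1 were higher and Slc16a6 was lower in the libraries labelled KD-1cell than in Ctrl, though the call of Slc2a1 was not stable. Slc16a1 was 2.16, 1.78, 2.33 and 2.77 FPKM in Ctrl and 3.74, 4.15, 3.49 and 3.49 in the libraries labelled KD-1cell, which do not overlap. Slc16a6 was 2.59, 2.88, 3.36 and 3.51 in Ctrl and 1.54, 1.71, 1.98 and 1.04 in KD-1cell, also apart. Slc2a1 was 7.69, 8.97, 7.47 and 8.96 in Ctrl and 10.6, 10.9, 10.5 and 8.77 in KD-1cell, with 1 library inside the Ctrl range. KD-1cell minus Ctrl was 0.62 for Slc16a1 (SE 0.13, adjusted p = 0.0035), -0.81 for Slc16a6 (SE 0.16, adjusted p = 0.0033) and 0.28 for Slc2a1 (SE 0.10, adjusted p = 0.037), where 43.7% of rows were called (29.8% higher and 13.9% lower). The call of Slc2a1 was lost with scaling by the median of ratios (0.16, adjusted p = 0.19), which moved the median of all rows by -0.12, and without Ctrl columns 1 or 3 or KD-1cell columns 1, 2 or 3 (adjusted p from 0.073 to 0.1). Under that scaling Slc16a1 was higher by 0.51 (adjusted p = 0.011) and Slc16a6 lower, at -0.91 (adjusted p = 0.0019).

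Slc16a6 made up 55.8% of the sum of the 4 Slc16a genes in Ctrl (51.3% to 60.1%) and 28.7% in KD-1cell (22.2% to 35.6%), and Slc16a1 40.6% and 68.8%. The library labelled KD-2cell, alone in its group and thus without a test, held 9.56 FPKM of Slc2a1, 1.80 of Slc16a1 and 1.91 of Slc16a6, so it lay with KD-1cell for Slc16a6 and at the low end of Ctrl for Slc16a1. Amz2, which overlaps Slc16a6, was 1.99 ± 0.082 FPKM (n = 4) in Ctrl and 3.06 ± 0.68 (n = 4) in KD-1cell, opposite to Slc16a6. Summed oocyte markers were 764 to 853 in Ctrl and 855 to 1049 in KD-1cell, with 5 of 8 called higher, and summed 2-cell markers overlapped (88.2 to 113 and 72.3 to 101). Of these 2-cell markers Duxf3 was called higher by limma (1.20, adjusted p = 0.0014), and the others were lower but not called. The part of both marker sets in the result was not tested. The other 5 members stayed at or under 0.428 FPKM in all 9 libraries. Slc2a8 was 0.315, 0.209, 0.2 and 0.177 in Ctrl and 0.0695, 0, 0.0898 and 0.0873 in KD-1cell, below the filter, and was called lower in the fit without a filter (-0.37, adjusted p = 0.041). The KD-2cell library held 0.315 FPKM of Slc2a8, at the top of the Ctrl range and not with KD-1cell.

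Of the partners and metabolic genes, those named next were called, except Arnt in the Early2c knockout. Txnip rose from 14.1 ± 1.4 to 40.9 ± 5.2 FPKM in KD-1cell (1.499, adjusted p = 4.4e-06) and from 9.60 ± 2.0 to 18.5 ± 1.8 in the Early2c knockout (0.93, adjusted p = 0.00014). Bsg rose by 0.34 (adjusted p = 0.026) and 0.45 (adjusted p = 5.9e-05), Slc16a13 by 0.68 and 0.56, and Hif1a by 0.57 (adjusted p = 0.002) and 0.47 (adjusted p = 4e-06). Glycolysis genes went separate ways. In KD-1cell 1 of 11 tested rose and 5 fell, where 29.8% of all rows rose and 13.9% fell (median -0.40 against 0.12 over all rows), with Hk2 at -1.27 (adjusted p = 0.00097) and Eno1 at -1.26 (adjusted p = 8e-05). In the Early2c knockout 5 of 11 rose and none fell, where 33.4% of all rows rose and 15.6% fell (median 0.19 against 0.11), with Gpi1 at 0.72 (adjusted p = 5.6e-05) and Eno1 at 0.38 (adjusted p = 0.0035). Of the genes of lactate and pyruvate handling 4 of 13 rose in KD-1cell, near the 29.8% of all rows that rose, and none fell, where 13.9% of all rows fell. In the knockout 7 of 16 rose and 1 fell, near the 49.0% of all rows called (33.4% higher and 15.6% lower). Dld, a subunit of pyruvate dehydrogenase, was higher in both (0.39 and 0.77). Arnt, the partner of Hif1a, was 12.7 ± 1.1 FPKM in Ctrl and 0.676 ± 0.11 in KD-1cell (-3.49, SE 0.11, adjusted p = 3.7e-08), and 0.469 in the KD-2cell library. In Early2c embryos Arnt was 14.4 ± 0.25 in controls and 13.1 ± 0.50 in knockouts (-0.13, adjusted p = 0.11).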

How the data were processed

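Total RNA was sequenced as paired reads of 150 bases. The values deposited by the authors are FPKM per gene; per the submitters' processing notes the tools were Cuffdiff 2.2.1, StringTie 1.3.4d, HISAT2 2.1.0, cutadapt 1.18 and Cufflinks with build GRCm38, and the role of each, the denominator, the use of strand and which sample got the TruSeq or the SMARTer kit were not given in the sources used here. Without counts the depth is unknown. The members and gene lists were chosen with earlier results of these data known. Columns were matched to groups by name. The 4-cell columns bear numbers that match no sample, and those of LncR-3363 another short name, which was linked to it by the structure of the series alone, so both are numbered as columns; whether added runs were merged is not stated.

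Symbols came from GENCODE M21 (54409 of 54446 Ensembl rows matched). limma 3.58.1 (eBayes with a trend, R 4.3.3) was run on log2(FPKM + 0.5) for rows that reached 1 FPKM in a minimum number of libraries, equal to the smallest group (2 in the stage and time fits, 4 in the knockdown fit, 3 in the MT2Mm fit), with Benjamini-Hochberg adjustment over all tested rows and a threshold of 0.05. Each of the 4 fits held its own experiment, KD-2cell left out. Each was also run on simulated data with independent noise and changes planted only in rows above low levels. That run does not speak to tags or to members near 0. Aldoa has more than 1 row and was left out of the list counts. Genes named from the lists are up to 4 per comparison, called ones first by size, and a few followed from those across comparisons. Promoters are RefSeq's; members without an entry are Slc2a3, Slc2a4, Slc16a6 and Slc16a7. Python 3.11.15 with pandas 2.3.3, NumPy 2.4.6 and Matplotlib 3.10.9 made tables and figures. Alternatives were pseudocounts of 0.1 and 1, no filter, scaling by the median of ratios, the replicate block, each library left out and fits of 2 groups; fits on tag-sharing libraries and without the zygote were added after the data were seen.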

Additional observations from a re-analysis of the deposited data

Results flagged for a closer look

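The Slc2a4 level of 0.428 FPKM in Ctrl column 4 stood apart from the other 3 Ctrl libraries, at 0 to 0.0491, though it lies under the pseudocount. Each of the 8 members was examined in this way in both groups of 4. Chance marks about 1 in 20 such checks, so 1 mark among them may be chance. The knockout effect on Slc16a1 was larger at Early2c than at Late1c by 0.87 on the log2 scale, by the test of the difference itself. For Slc16a6 that test gave -0.64, but its Late1c levels (0.0794 to 0.177 FPKM) lie under the pseudocount, where no effect could show, so the value restates the Early2c effect. The KD-2cell library, which enters no comparison, held 9.56 FPKM of Slc2a1, above the Ctrl range of 7.47 to 8.97.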

How the results depend on the processing

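Over 779 recomputed values of single members 710 kept direction and side of the threshold, 27 lost the call, 25 gained it and 17 changed sign. Counts of called members moved by over 1.5 times in these settings: with a pseudocount of 0.1 the zygote minus MII count was 1 (0 as reported). In fits of 2 groups E2-cell minus zygote gave 1 (2), morula minus 8-cell 5 (3) and blastocyst minus morula 5 (3). Without a filter, which brings in the other 5 members, the step from Late1c to Early2c gave 8 in controls (3) and 5 in knockouts (1). Leaving out 1 library also moved the count, for some libraries, at zygote minus MII, E2-cell minus zygote, 8-cell minus 4-cell and 17 h minus 14 h. Those fits left 1 library in a group, so their counts are not given. For the knockout step, leaving out 1 library gave 1 to 2. The cause was not tested.

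Replicate numbers did not pair the libraries: residuals of equal numbers correlated at -0.0889 to 0.0891 in the stage fit, -0.0716 to 0.0343 in the time fit and -0.138 to 0.153 in the MT2Mm fit. With the replicate block the knockout step gave 2 (1), and Slc2a1 was called there (-0.22, adjusted p = 0.021) and in Early2c knockouts (0.21, adjusted p = 0.041). The 4-cell columns left the stage fit with the block, and the knockdown columns carry no usable numbers.

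Signs changed for small values and for Slc16a1 at the zygote. Scaling by the median of ratios gave 0.032 for Slc2a8 in E2-cell minus zygote and -0.13 for Slc2a1 in blastocyst minus MII. With 1 library left out, zygote minus MII ran from -0.036 to 0.044 for Slc2a3 (-0.036 without MII replicate 2, -0.017 without zygote replicate 1) and from -0.078 to 0.27 for Slc2a8. E2-cell minus zygote ran from -0.18 to 0.17 for Slc2a8 and from -1.25 to 0.95 for Slc16a1, and morula minus 8-cell from -0.16 to 0.0075 for Slc2a3. The knockout effect at Late1c ran from -0.061 to 0.073 for Slc16a1, from -0.12 to 0.021 for Slc2a1 and from -0.012 to 0.075 for Slc16a6. On libraries that share a tag, Slc2a3 was -0.057 in zygote minus MII, and Slc2a8 was 0.17 and Slc16a1 0.95 in E2-cell minus zygote. The scaling moved the median of all rows by over 0.1 in 9 comparisons, from -0.23 (blastocyst minus MII) to 0.17 (Early2c minus Late1c in controls). Without a filter Slc16a3 was called in 4 and Slc16a7 in 5 of 16 comparisons. Depth is unknown, so the counting error of such low values is not known.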
